A study of Rattus norvegicus with 6 samples.

Results

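The genes described here are 10 genes of macrophages in rat colon, split by what their products are known for. Cd163, Mrc1 and Adgre1 are taken as markers of resident tissue macrophages. C1qa, C1qc, Lyz2, Cd68, Csf1r, Tyrobp and Itgam are carried by macrophages in general, and several of them also by monocytes that enter a tissue from the blood. The genes were chosen by name with earlier results of these data known, although no measured value enters the rule, and their probes were found through the accession that the array design gives each probe. In all, 11 of the 30367 probes on the array matched the 10 genes, 3 probes to the resident markers and 8 to the others, since Csf1r had 2. All 11 were among the 23997 probes of the deposited log2 table. Colon RNA came from 3 rats of the Dahl salt-sensitive strain (SS/Jr, called S) and 3 rats of the congenic strain S.LEW(10)x12x2x3x5 (S.LEW congenic), in which a short stretch of the Lewis genome replaces that of S on chromosome 10. Every rat was male, ate a diet with 0.3% NaCl, received the colon carcinogen azoxymethane (AOM) at 15 mg per kg in each of 2 weekly injections, the first at an age of 6 weeks, and was harvested at 30 weeks. Rats that did not receive AOM, and single cell types, were not analysed here, so each value is an average over the cells of a colon sample. Whether a sample held tumor tissue is not given in the sources used here.

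Macrophages of the colon lie in the mucosa under the epithelium and in the muscle layer. Most are renewed from blood monocytes, which lose their inflammatory genes and gain scavenger receptors as they settle, while a smaller part maintains itself in the tissue and is rich in Cd163, Mrc1 and Lyve1. The receptor Csf1r, bound by Csf1 and Il34, keeps macrophages alive, and the adaptor Tyrobp carries signals from Trem2 to the kinase Syk. C1qa, C1qb and C1qc form C1q, a part of the first component of the classical complement pathway. In RNA from bulk tissue, fewer cells of a type and less RNA per cell cannot be told apart.

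The promoters of 4 members are shown because they come from both sets and differ in a sequence tied to this lineage. The factor PU.1, made by Spi1, drives myeloid genes and binds sites with the core GAGGAA. Each line below gives the 100 bases before the RefSeq start site of the gene in build GRCr8, 5′ to 3′ on the strand of the gene, with capitals for that core, which reads TTCCTC where it lies on the opposite strand.
Cd163: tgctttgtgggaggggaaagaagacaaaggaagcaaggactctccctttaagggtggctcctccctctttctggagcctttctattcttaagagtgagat
Mrc1: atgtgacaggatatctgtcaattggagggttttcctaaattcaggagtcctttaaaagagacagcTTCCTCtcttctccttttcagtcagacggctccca
Lyz2: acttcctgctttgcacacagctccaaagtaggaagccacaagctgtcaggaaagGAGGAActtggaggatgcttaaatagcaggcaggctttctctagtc
Cd68: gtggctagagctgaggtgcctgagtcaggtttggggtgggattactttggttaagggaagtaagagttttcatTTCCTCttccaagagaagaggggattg

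These windows are chr4:158770674-158770773 on the plus strand for Cd163, chr17:82157625-82157724 on the plus strand for Mrc1, chr7:54798012-54798111 on the minus strand for Lyz2 and chr10:54882442-54882541 on the minus strand for Cd68. The core began 35 bases before the start of Mrc1, 46 bases before that of Lyz2 and 27 bases before that of Cd68. Of the 8 members with an entry in the RefSeq promoter table, 6 held the core on either strand within 250 bases before the start, against 7812 of 33469 promoters (23.3%). The 6 were Mrc1, Adgre1, Lyz2, Cd68, Csf1r and Itgam, and Cd163 and C1qa held none, so that both sets had members with and without it. C1qc and Tyrobp were not among the 8. A match describes letters and not a bound site. The signal of Spi1, added here after its values had been seen, was 11.28, 11.43 and 10.95 in the congenic rats and 10.89, 12.31 and 11.77 in the S rats, which overlapped.

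Each rat was measured on 1 single-color array, and the signal of a probe is given as a log2 value, so that a difference of 1 is 2-fold. The rats are named C1, C2 and C3 for S.LEW congenic and S1, S2 and S3 for S, and every difference is congenic minus S. The share of spots well above background ran from 73.8% to 87.6% over the arrays, and was highest in S3 (87.6%) and S1 (86.3%). Before normalization, the median spot intensity was 594 in S1 and 445 in S3, and from 214 to 291 in the other 4 rats. A link between this and the member signals was not tested. Of the 11 member probes, 10 were well above background on all 6 arrays. The exception was Itgam, which was well above background on 1 of 3 congenic arrays and on 3 of 3 S arrays. S2 stood apart from the S rats S1 and S3: across probes, which are not independent replicates, the correlation of its array was between 0.967 and 0.976 with the congenic arrays, but fell to 0.900 and 0.937 with those of S1 and S3, which correlated with each other at 0.980. C2 and C3 were scanned apart from the other 4 arrays. Results are therefore also given without S2 and within the first scan, where C1 was set against S1, S2 and S3 and is assumed to vary as they do.

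Cd163 and Mrc1 had higher signals in S.LEW congenic rats than in S rats, and the strains did not overlap. In the same arrays, the 8 probes of the other macrophage genes lay below S on average, but through S1 and S3, since S2 lay below the congenic mean for 7 of the 8 probes. No probe passed an adjusted p of 0.05 in limma, among the members or over the array (0 of 23997, 0.0%), while 3115 of the 23997 probes had an unadjusted p under 0.05, among them 3 of the 11 member probes, and the methods' t-test gave 2594 probes and 2 member probes. At the cut-offs of the study, 2-fold and a p under 0.05 before adjustment, 2 member probes were called higher in the congenic strain, beside 3.23% of all probes, and 1 was called lower, beside 2.34%. With the methods' t-test at the same cut-offs the members called were 2 higher, beside 2.15% of all probes, and 0 lower, beside 0.742%. Without S2 the members called lower numbered 7, beside 7.19% of all probes, and those called higher were again 2, beside 9.99%.

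**Figure D1:**
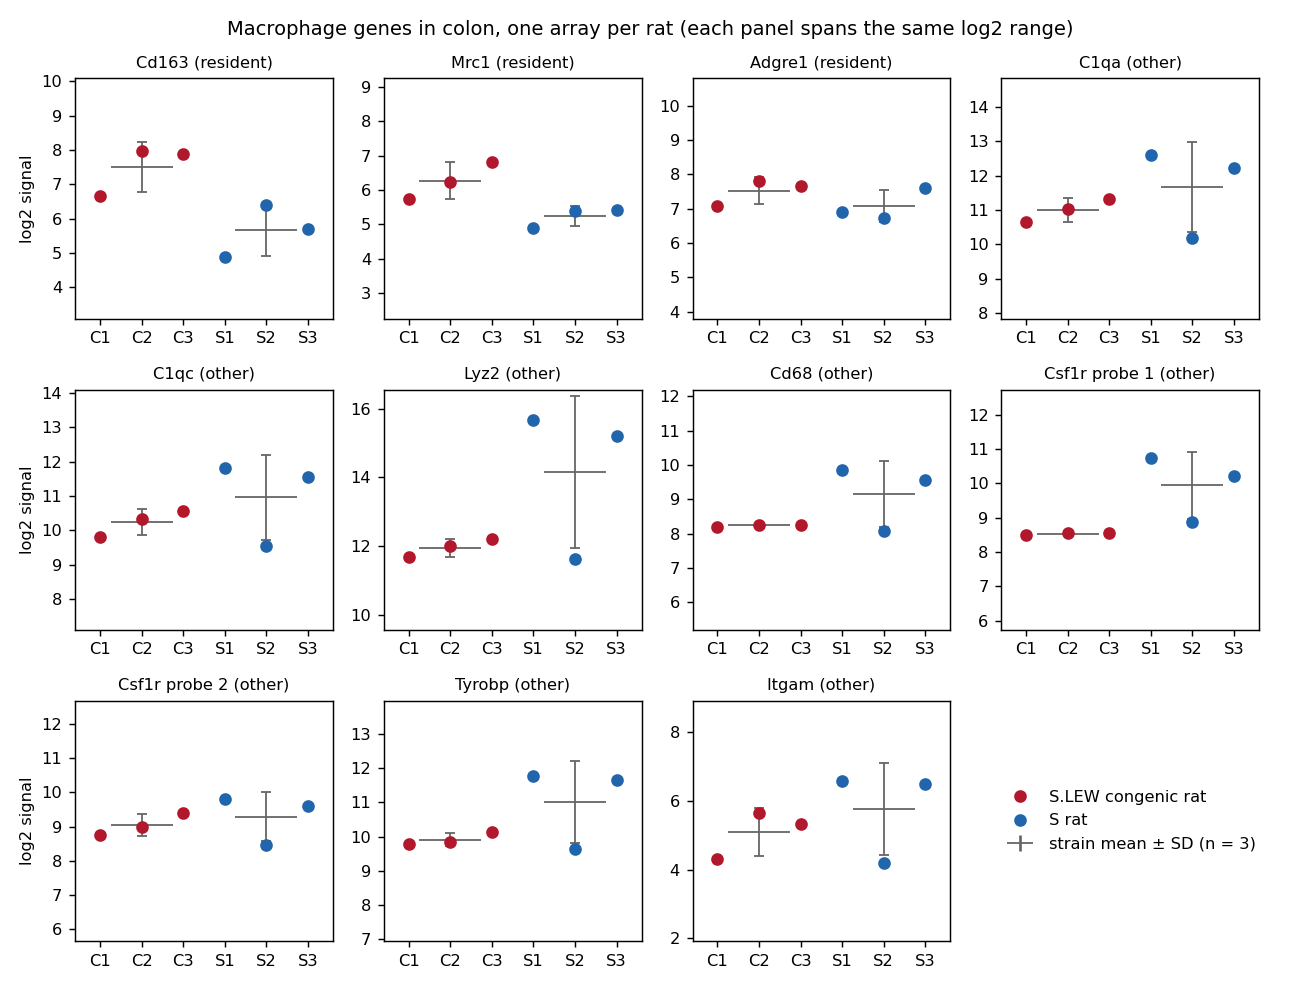
Log2 signal (vertical axis) of the 11 member probes in each rat (horizontal axis), with red points for S.LEW congenic, blue points for S, and gray lines and bars for the strain mean ± SD (n = 3). Cd163 and Mrc1 lie higher in all 3 congenic rats, and S1 and S3 lie above the other 4 rats for all 8 probes of the other members.

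Cd163 is the scavenger receptor that takes up complexes of hemoglobin and haptoglobin. Its signal was 6.67, 7.98 and 7.88 in C1 to C3, and 4.89, 6.40 and 5.69 in S1 to S3. All 3 congenic rats were above all 3 S rats, with C1 only slightly above S2, and S2 was the highest of the S rats. The strain means were 7.51 ± 0.73 and 5.66 ± 0.76 (SD, n = 3), and the difference was 1.85 ± 0.51 (log2, standard error, limma), a 3.61-fold higher level, with a p of 0.00934 and an adjusted p of 0.283. An exact two-sided permutation test gave 0.10, the smallest p that 3 rats against 3 can give. Within the first scan, where C1 is the only congenic rat, the difference was 1.01 with a limma p of 0.197. With normexp background correction and all 6 rats it was 1.09, so the size of the fold depended on how background was treated. The probe was dim, with every value below the median log2 value of its array, which lay between 8.55 and 8.57. Its scanner intensities before normalization were 97.3, 166.4 and 214.1 in C1 to C3, and 55.2, 67.7 and 70.9 in S1 to S3.

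Mrc1, the mannose receptor, takes up glycoproteins and microbial sugars. Its signal was 5.74, 6.25 and 6.81 in C1 to C3, against 4.91, 5.39 and 5.42 in S1 to S3. The congenic rats were again all above the S rats, by a small margin between C1 and S3. In the scanner intensities before normalization the strains overlapped, at 52.8, 44.8 and 101.5 in C1 to C3 and 55.9, 35.4 and 59.8 in S1 to S3. The probe was dim, since the median log2 value of each array lay between 8.55 and 8.57. The difference was 1.03 ± 0.32, or 2.04-fold, just past the 2-fold cut-off, with a p of 0.0167 and an adjusted p of 0.323 in limma. It fell short of 2-fold in several settings, with 0.50 within the first scan, 0.41 after normexp background correction, 0.95 with arrays scaled to their 75th percentile, and 0.75 without C3 and 0.86 without S1. Cd163 and Mrc1 are 2 of 11 member probes with all congenic rats above all S rats, beside 12.4% of all probes.

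Adgre1, an adhesion receptor, marks rodent macrophages widely. Its signal was 7.08, 7.81 and 7.68 in C1 to C3, and 6.91, 6.72 and 7.59 in S1 to S3. S3 lay within the range of the congenic rats, so the strains overlapped, and the difference of 0.45 ± 0.32 had a p of 0.203 (adjusted p 0.523). Within the first scan it was 0.0050. The third resident marker therefore had a difference within the spread between rats.

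Csf1r, the receptor for Csf1 and Il34, was the only one of the other members to be called, and its 2 probes disagreed. The probe A_64_P351634 gave 8.49, 8.54 and 8.55 in C1 to C3, and 10.73, 8.86 and 10.23 in S1 to S3. The congenic rats were all below the S rats, as was true of 5.33% of all probes. In the scanner intensities before normalization, however, S2 (328) lay below C3 (340). The congenic rats differed among themselves far less than the S rats did. The difference was -1.42 ± 0.47, a 2.67-fold lower level, with a p of 0.0214 and an adjusted p of 0.336. The call was lost without any 1 of C1, C2, C3, S1 and S3, where the p ran from 0.05 to 0.0671, and within the first scan, where the difference was -1.45. The probe A_44_P257582 gave 8.75, 8.98 and 9.39 in C1 to C3, and 9.79, 8.47 and 9.61 in S1 to S3, with a difference of -0.25 ± 0.39 (p 0.546).

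Lyz2, the lysozyme of macrophages and neutrophils, had the widest spread of the members. Its signal was 11.68, 12.00 and 12.19 in C1 to C3, and 15.66, 11.62 and 15.20 in S1 to S3. The highest S rat was 16.5-fold above the lowest, while the congenic rats were within 1.43-fold of each other, and S2 was below all of them. The difference of -2.21 ± 1.03 was not called (p 0.0728). It was -3.48 without S2 and -1.46 without S1.

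C1qa and C1qc encode chains of C1q, which starts the classical complement cascade. C1qa was at 10.64, 11.03 and 11.32 in C1 to C3, and at 12.61, 10.18 and 12.22 in S1 to S3. C1qc was at 9.82, 10.34 and 10.56 in C1 to C3, and at 11.81, 9.53 and 11.55 in S1 to S3. In both, S1 and S3 were above every congenic rat and S2 was below every one of them. The differences were -0.68 ± 0.64 (p 0.326) for C1qa and -0.73 ± 0.61 (p 0.279) for C1qc, neither of them beyond the spread between rats.

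Cd68 is a glycoprotein of the lysosome, and Tyrobp is the adaptor also known as DAP12. Cd68 was nearly level in the congenic rats, at 8.19, 8.26 and 8.27, and was at 9.85, 8.08 and 9.55 in S1 to S3. Tyrobp was at 9.77, 9.84 and 10.12 in the congenic rats and at 11.75 in S1, 9.63 in S2 and 11.63 in S3. Both showed the order seen for C1q, with S1 and S3 highest and S2 lowest of all. The differences were -0.92 ± 0.46 (p 0.0903) for Cd68 and -1.09 ± 0.57 (p 0.101) for Tyrobp.

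Itgam, the integrin chain CD11b of macrophages, monocytes and neutrophils, was the dimmest of its set against background. Its signal was 4.30, 5.64 and 5.32 in C1 to C3, of which only that in C3 was well above background, and 6.59, 4.21 and 6.48 in S1 to S3. S1 and S3 were again above the other 4 rats, and the difference of -0.67 ± 0.71 had a p of 0.376. Within the first scan it was -1.46 (p 0.197).

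An order of the rats was common to the whole set of the other members. For 8 of 8 probes S1 and S3 were the highest of the 6 rats, beside 25.8% of all probes. None of the resident markers shared this order, and Cd163 had the opposite one, with S1 and S3 the lowest of the 6 rats, beside 28.2% of all probes. For 8 of 8 probes of the other members the SD was larger among the S rats than among the congenic rats, beside 70.8% of all probes. Over all members, S2 was nearer to the congenic mean than to the mean of S1 and S3 for 9 of 11 probes, beside 73.5% of all probes. Within the first scan the differences of those not given above were -2.49 for Lyz2, -1.03 for C1qa, -1.15 for C1qc, -0.97 for Cd68 and -1.23 for Tyrobp, each with C1 as the only congenic rat.

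S2 was set aside because its array resembled the congenic arrays, so leaving it out widens the difference between the strains by construction. The values without it describe how far the averages of the S strain rest on S1 and S3, and their p-values are no support for a strain difference. Without S2, an adjusted p under 0.05 was found for 1 member higher in the congenic strain, beside 12.5% of all probes, and for 6 lower, beside 10.6%. The difference of Cd163 was 2.23 ± 0.48 and that of Mrc1 1.1 ± 0.36, while Adgre1 had 0.27 ± 0.32. Lyz2 had a difference of -3.48 ± 0.24, the probe A_64_P351634 of Csf1r -1.95 ± 0.20 and the other probe of Csf1r -0.66 ± 0.23. Tyrobp had a difference of -1.78 ± 0.17, Cd68 -1.46 ± 0.16, Itgam -1.45 ± 0.41, C1qc -1.44 ± 0.26 and C1qa -1.42 ± 0.26. All 8 probes of the other members were thus farther from 0 than with all 6 rats.

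**Figure D2:**
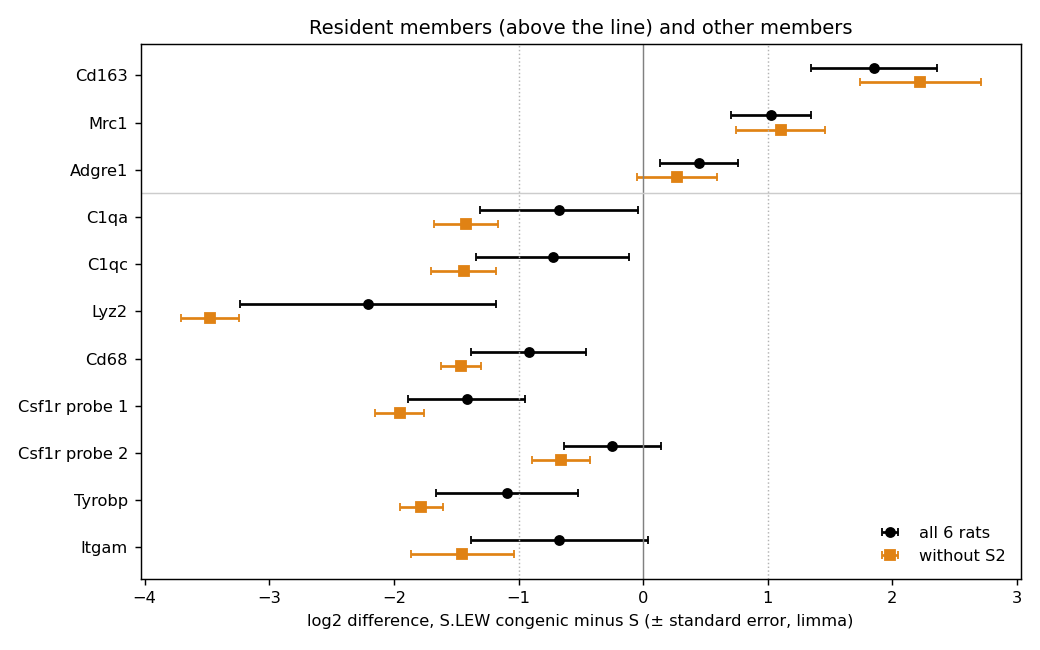
Log2 difference, congenic minus S (horizontal axis, ± standard error from limma), for each member probe (vertical axis), with black points for all 6 rats and orange squares without S2, and dotted lines at 2-fold. The 3 resident markers lie above 0 and the 8 other probes below 0 in both fits, and the other probes lie farther from 0 without S2.

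To set the resident markers against the others within each rat, each gene was centered on its mean over the 6 rats, and the genes of a set were averaged, with the brighter probe standing for Csf1r. The resident markers averaged -0.05, 0.80 and 0.91 in C1 to C3, and -0.98, -0.37 and -0.31 in S1 to S3. The other members averaged -0.85, -0.45 and -0.35 in C1 to C3, and 1.46, -0.96 and 1.15 in S1 to S3. The resident set was lowest in S1, where the other set was highest, and S2 had low values of both. The resident set minus the other set came to 0.80, 1.25 and 1.27 in C1 to C3 and to -2.44, 0.58 and -1.46 in S1 to S3, so that all congenic rats were above all S rats, with S2 close below C1. The strain difference of this contrast was 2.21, as a description with no test. The probe used for Csf1r was the brighter one in the S rats (mean 9.94 against 9.29) but the dimmer one in the congenic rats (8.52 against 9.04). In settings that were not planned, the contrast was 2.04 with the other probe of Csf1r and 2.03 without Lyz2. It lay between 1.55 (without S1) and 3.05 (without S2) when each rat was left out in turn.

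Markers of other cells differed between the same rats. Over 8 genes shared by leukocytes the averages were -1.63, -1.32 and -1.47 in C1 to C3, 3.18 in S1, -1.58 in S2 and 2.83 in S3. Ptprc, the CD45 antigen of all leukocytes, was at 6.80, 7.51 and 7.49 in C1 to C3, at 14.26 in S1, 6.72 in S2 and 13.85 in S3, an order shared with the other macrophage members but over a far wider range. The 10 T cell genes with a tested probe averaged 2.39 in S1, 2.56 in S3 and from -1.29 to -1.17 in the other 4 rats, and the 6 B cell genes averaged 3.31 in S1, 2.68 in S3 and from -1.61 to -1.28 in the other 4. These B and T cell lists had median differences of -3.33 and -2.76, with 3 of 6 and 5 of 10 genes called lower, beside 2.62% of all genes. Among these calls were Cd37 (-3.81) of B cells and Lck (-3.43) and Zap70 (-3.26) of T cells, and among the leukocyte genes Coro1a (-3.51) and Cd52 were called. Cd52 was not well above background in any congenic rat and was at least 1.74-fold lower there (adjusted p 0.268 in limma). It passed the detection filter through the 3 S arrays alone, which largely set its direction. The part of these leukocytes in the lower values of the other macrophage members was not tested. Which stretch of the colon each RNA sample came from, and how much lymphoid tissue it held, is not given in the sources used here, for S2 or for any other rat.

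Other tissue lists lay on the side of the resident markers. The 11 smooth muscle genes averaged 0.42, 0.46 and 0.67 in C1 to C3, -1.67 in S1, 0.79 in S2 and -0.67 in S3, with a median difference of 1.07, all 11 above 0 and 1 called, Smtn (1.12). The 8 adipocyte genes averaged 0.02, 0.65 and 0.80 in C1 to C3 and -0.51, -0.43 and -0.51 in S1 to S3, with a median of 0.86 and 2 called higher, Adipoq (1.91), the hormone adiponectin, and Cfd (1.57). In this list C1 was the lowest congenic rat, as it was for the resident markers. The same held for the other members, the smooth muscle genes and the genes shared by leukocytes, so this was not particular to adipocyte genes. It did not hold for the epithelial, T cell and B cell lists. The 11 epithelial genes had a median of 0.81, all 11 above 0, with Tspan8 (1.08) and Vil1 (1.01) called higher. Of all genes, 3.79% were called higher. The part of these tissues in the higher values of Cd163 and Mrc1 was not tested.

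**Figure D3:**
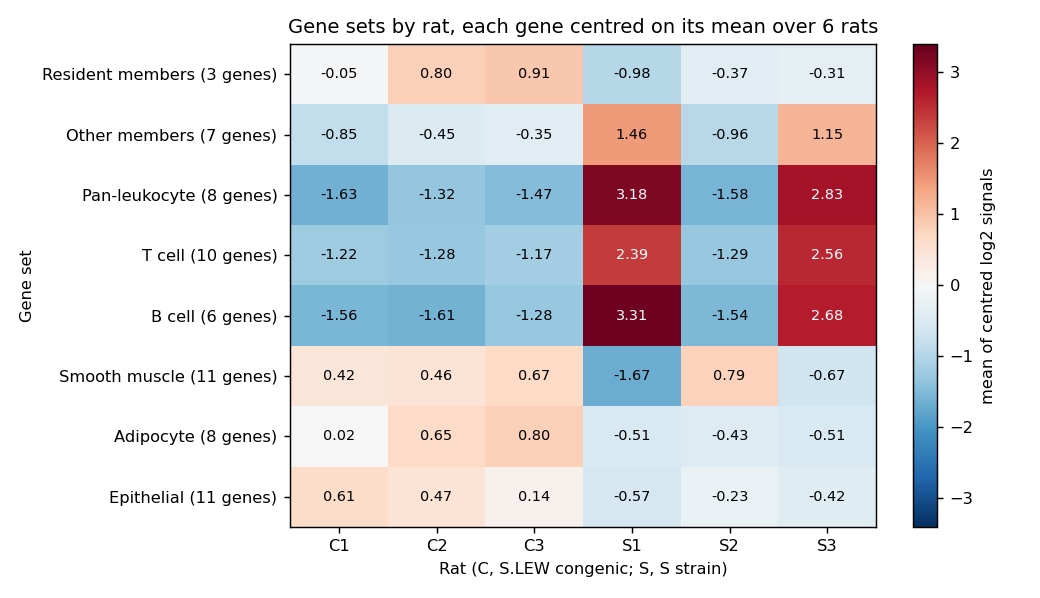
Mean of centered log2 signals (color and printed value) of each gene set (rows) in each rat (columns). The other members, leukocyte, T cell and B cell sets are highest in S1 and S3, while S2 resembles the congenic rats in these sets; the resident set runs from -0.98 in S1 to 0.91 in C3.

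A wider list of resident macrophage genes lay mostly above 0, but few of its genes were called. Of 17 genes, 14 had a tested probe, and 12 of these had a difference above 0. Among the 14, 3 were called higher in the congenic strain (Cd163, Mrc1 and F13a1) and none lower, where 3.79% and 2.62% of all genes were called higher and lower. Over the 14 genes the median difference was 0.43, and over the 11 that are not members it was 0.41, against 0.03 over 12413 genes. F13a1, the A subunit of coagulation factor XIII, had 7.50, 7.88 and 8.18 in C1 to C3 against 5.91, 6.61 and 5.83 in S1 to S3. All congenic rats were above all S rats, by 1.74 ± 0.29 with a p of 0.000813 and an adjusted p of 0.205. Without S2, 5 genes of the list were called higher, beside 9.99% of all probes. Lyve1, a hyaluronan receptor named here after its values had been seen, was at 8.78, 8.90 and 10.02 in C1 to C3 and at 7.75, 10.02 and 9.78 in S1 to S3, a difference of 0.05 ± 0.67 (p 0.942). Its strains overlapped, so this resident marker did not show the gap of Cd163 and Mrc1. The lowest difference of the list, also named after its values had been seen, was that of the transcription factor Maf, at -0.62 ± 0.34 (p 0.113).

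A list of general macrophage genes lay on the other side. Of 27 genes, 24 had a tested probe, and 23 of them had a difference below 0, beside 47.1% of all genes. The median was -0.72, and it was -0.70 over the 17 genes that are not members. Only Csf1r and Laptm5 were called lower, beside 2.62% of all genes, and none higher. Laptm5, a lysosomal membrane protein of leukocytes, was at 10.20, 9.98 and 10.47 in C1 to C3 and at 13.80, 10.23 and 13.41 in S1 to S3, a difference of -2.26 ± 0.92 (p 0.0460, adjusted p 0.380). S2 lay within the congenic range for Laptm5. Over the list, S1 and S3 were the highest rats in 19 of the 24 genes, beside 25.8% of all probes. Without S2 the median was -1.43 and 14 of the 24 were called lower, beside 7.19% of all probes. Without any 1 of the other rats, however, none was called.

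Genes of newly recruited monocytes were mixed. Of 16 genes, 12 had a tested probe, 8 of them with a difference below 0, and the median was -0.36. In this list 3 were called lower, beside 2.62% of all genes, and none higher. Ccl2, the chemokine that draws monocytes from the blood, was at 6.50, 7.47 and 7.37 in C1 to C3 and at 9.11, 8.23 and 9.32 in S1 to S3. All S rats, S2 included, were above all congenic rats, by 1.77 ± 0.39 as S minus congenic (p 0.00338, adjusted p 0.245). Ccr2, the receptor of Ccl2, was at 4.63, 2.38 and 3.21 against 5.90, 4.21 and 5.86, a difference of -1.92 ± 0.70 (p 0.0316), with 1 of 3 congenic arrays well above background. Plac8, named after its values had been seen, was the third call, at -1.61 ± 0.56 (p 0.0260). The number of calls in this list was 1 without any 1 of C2, C3, S1 and S3, and 5 without S2, beside 7.19% of all probes.

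**Figure D4:**
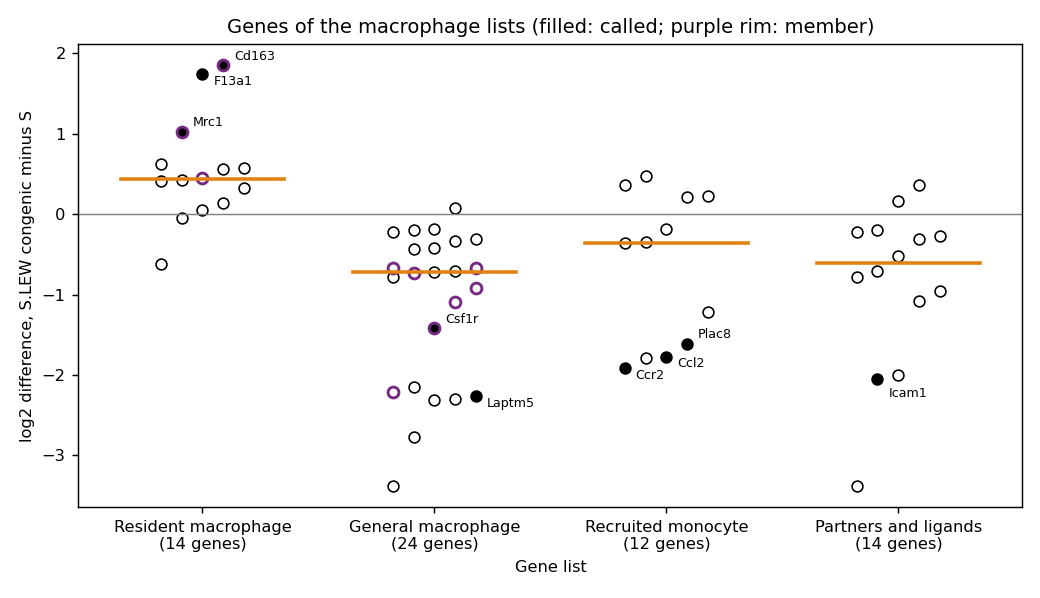
Log2 difference, congenic minus S (vertical axis), of every gene with a tested probe in the 4 macrophage lists (horizontal axis), with filled points for genes called at 2-fold and a p under 0.05, purple rims for members and orange lines for the median of a list. The medians are 0.43 for resident macrophage genes, -0.72 for general macrophage genes, -0.36 for recruited monocyte genes and -0.61 for partners and ligands.

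The ligands of Csf1r differed little between the strains, whereas most of the partners had the order of S1 and S3 above the rest. All 14 partners and ligands had a tested probe that was well above background on every array. Their median was -0.61, with 12 of 14 below 0 and 1 called lower, beside 2.62% of all genes. S1 and S3 were the highest rats in 11 of the 14 genes, beside 25.8% of all probes. Of these genes, C1qb, Fcer1g, Itgb2 and Trem2 stand in the general macrophage list as well. Csf1 was at 9.12, 9.43 and 9.57 in C1 to C3 and at 9.08, 9.26 and 9.29 in S1 to S3, a difference of 0.16 ± 0.19. Il34 was at 10.23, 9.91 and 10.37 against 10.21, 9.71 and 9.52, a difference of 0.36 ± 0.25. Both ligands overlapped between the strains, and neither showed the gap between S2 and the other S rats that Csf1r showed.

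Itgb2, the chain that pairs with Itgam, had the largest difference of the partners. It was at 6.45, 7.13 and 6.91 in C1 to C3 and at 12.26 in S1, 6.35 in S2 and 12.03 in S3, so that its difference of -3.38 ± 1.54 rested on S1 and S3 and was not called (p 0.0681). Itgb2 also pairs with other chains, among them that of lymphocytes. Icam1, a ligand of that integrin on endothelium and leukocytes, was called lower, at 8.41, 8.92 and 8.76 in C1 to C3 and 11.71, 9.08 and 11.45 in S1 to S3 (-2.05 ± 0.69, p 0.0232, adjusted p 0.340). This call was lost without any 1 of C1, C3, S1 and S3, and without S2 the partners called lower were 7, beside 7.19% of all probes. Complement C3, whose cleaved form is bound by the pair of Itgam and Itgb2, had a difference of -1.08 ± 0.93. Its signal was 7.19, 7.96 and 7.47 in C1 to C3 and 10.10, 6.37 and 9.39 in S1 to S3. All 3 genes were highest in S1 and S3, and S2 was below every other rat for Itgb2 and C3.

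Partners of Tyrobp were unlike each other. Syk, the kinase recruited by such adaptors and also used by B cells, was at 8.50, 8.49 and 8.72 in C1 to C3 and at 12.34, 7.72 and 11.66 in S1 to S3, a difference of -2.0 ± 1.15. Trem2, a lipid receptor that signals through Tyrobp, was at 6.48, 6.76 and 6.68 against 7.49, 6.33 and 6.70, and differed by -0.20 ± 0.32. Fcer1g, a related adaptor, was at 9.48, 9.57 and 9.81 against 10.19, 9.13 and 10.18, and differed by -0.22 ± 0.33. None of the 3 was called, and only in Syk were S1 and S3 far from the other rats.

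The complement genes next to C1qa and C1qc had differences near or within the spread between rats. C1qb, the remaining chain of C1q, was at 11.04, 11.40 and 11.71 in C1 to C3 and at 12.99, 10.88 and 12.63 in S1 to S3 (-0.78 ± 0.56), the order of C1qa and C1qc. The proteases C1r and C1s, made largely by stromal cells and not by macrophages, differed by -0.52 ± 0.43 and -0.96 ± 0.71, and Serping1, the inhibitor of C1, by -0.71 ± 0.38. For Cd163, the ligand side gave little: haptoglobin (Hp) differed by -0.31 ± 0.37, and Hmox1, which breaks down the heme that the receptor brings in, by -0.28 ± 0.19. None of these 6 genes was called (limma p from 0.105 to 0.430). In all 6, however, S1 and S3 were the highest rats, so this order was not particular to genes of macrophages.

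The genes whose pattern over the 6 rats was most like that of Cd163 or Tyrobp were found by the root mean square difference between centered log2 profiles, over 10760 genes well above background on every array. Nearest to Cd163 were Ism1 (0.34), Aspn (0.34), Dlx1 (0.35), Frem3 (0.36) and PCOLCE2 (0.40). Aspn, a proteoglycan of the extracellular matrix, was at 10.47, 10.93 and 11.23 in C1 to C3 and at 7.78, 9.71 and 8.51 in S1 to S3, with S2 the highest S rat as for Cd163. Mrc1 ranked 140 at 0.57 and Adgre1 ranked 2622 at 0.91, so the resident markers were not each other's nearest genes. Nearest to Tyrobp were Arrb2 (0.04), Mast3 (0.10), Ifitm1 (0.10), Cklf (0.10) and Slc7a6 (0.11). Cd68 ranked 57 at 0.20, C1qc 97 at 0.24, C1qa 127 at 0.26 and Csf1r 138 at 0.26, while Lyz2, with its wider range, ranked 3480 and Cd163 ranked 10638.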

How the data were processed

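Cy3-labeled colon RNA of 6 rats was hybridized to Agilent rat arrays, 1 per rat. The authors extracted spot intensities with Feature Extraction 11.0.1.1, and the deposited scanner files hold background-corrected intensity values. Quantile normalization in GeneSpring and a filter for detection on 3 or more of the 6 arrays were applied by the authors, which left 23997 probes in the deposited log2 table. Those log2 values were used here unchanged, so quantile normalization fixes every array to the same distribution. The correlation with the scanner log2 intensities was between 0.9986 and 0.9998. Accessions of 17997 of 30367 probes matched 15162 RefSeq genes of GRCr8, used for names and promoters, and the probe with the highest mean signal stood for a gene. Genes of the lists without a tested probe had either no matched probe or one that was not in the table.

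The comparison of strains used lmFit and eBayes of limma 3.58.1 (R 4.3.3) without covariates and Benjamini-Hochberg adjustment over all probes. Calls used the cut-offs of the study, 2-fold and a p under 0.05 before adjustment. Shares without S2, and shares for the order of the rats, were taken over all probes only. Beside counts of genes, each with 1 probe, they are therefore an approximate reference. For probes not above background in any rat of a strain, the fold is a bound against the dimmest probe well above background on each array. The precision is limited by 3 rats per strain. The script was tested on simulated data. The members and lists were chosen with earlier results of these data known. Genes named in the text were all members, all partners and ligands, Ptprc, the 2 largest calls each way in every other list or else its 2 brightest genes, and the 5 nearest profiles to Cd163 and Tyrobp, of which 1 gene is not reported here. Genes outside this rule are marked as named after their values were seen. Alternatives were other normalizations, background correction, filters, the methods' unpaired t-test, array weights, replicate and scan blocks, and leaving out each rat.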

Additional observations from a re-analysis of the deposited data

How the results depend on the processing

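The 3 resident probes stayed above 0 and the 8 other probes below 0 in all settings run, except Adgre1 with array weights (-0.038) and the probe A_44_P257582 of Csf1r without S1 (0.0029, with -0.66 to 0.0029 when each rat was left out). Member probes called higher (2) became 1 with 75th percentile scaling, normexp correction or array weights and 0 with the scan as a block or within the first scan, and 1 to 2 when each rat was left out. Those called lower (1) became 0 with the methods' t-test, the scan block or within the first scan and 7 with array weights, and 0 to 7 when each rat was left out, with 7 only without S2. Over all probes, 776 calls higher became 359 with normexp, 515 with the t-test, 2090 with array weights and 443 within the first scan, and 477 to 2397 when each rat was left out. The 562 lower became 342 with a filter on all 6 arrays, 178 with the t-test, 1744 with weights, 227 with the scan block and 187 within the first scan, and 192 to 1725 when each rat was left out. Scaling to the 75th percentile gave 692 higher and 759 lower. Probes with an adjusted p under 0.05 numbered 1 with that scaling, 12474 with array weights and 0 to 5553 when each rat was left out, 41 without S1 and 5553 without S2. The weights stopped before convergence, with 29.2 for S3 and 0.12 for S2. With the scan as a block, calls numbered 1 higher in the resident list, 0 lower in the general list, 1 lower in the recruited list and 0 lower among partners, and the neutrophil median turned to 0.24. Leaving out each rat gave 2 to 5, 0 to 14, 1 to 5 and 0 to 7 calls. The scan cannot be told apart from the rats C2 and C3. The cause of these changes was not tested. Each cage of the study held 1 S rat and 1 congenic rat. Whether the replicate numbers follow the cages is not given in the sources used here. Deviations from the strain means correlated at -0.02, -0.13 and -0.06 between rats of the same number, which cannot settle it. With the replicate numbers as a block the calls were 2 and 1 among the members (Cd163 1.85, Mrc1 1.03) and 794 and 744 over all probes. Normexp used the median spot signal, chosen after seeing the data, since the planned mean signal was not run.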

Other observations

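Cells that share genes with macrophages were read from further lists. Of the neutrophil genes, 8 had a tested probe, with 6 below 0 and 2 above 0, and 5 were well above background on all 6 arrays. The median of -0.89 was -0.38 without C2 and turned to 0.24 with the scan as a block. S1 and S3 were the highest rats in only 2 of the 8 genes, beside 25.8% of all probes. The 1 called lower, beside 2.62% of all genes, was Fcnb, a ficolin of neutrophils and monocytes. It was at 6.33, 6.23 and 6.35 in C1 to C3 and at 9.43, 6.41 and 9.12 in S1 to S3. Of the dendritic cell genes, 7 had a tested probe, all 7 below 0 with a median of -1.07 that was -1.72 without S2. S1 and S3 were the highest rats in 4 of these 7 genes, again beside 25.8% of all probes. The 1 called lower was Cd83, a surface protein of activated dendritic and B cells. It was at 8.62, 8.98 and 8.38 in C1 to C3 and at 13.20, 8.75 and 12.57 in S1 to S3. In Fcnb and Cd83, S1 and S3 stood above the other 4 rats, as for the 8 probes of the macrophage members other than the resident markers.

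Of the mast cell genes, 10 had a tested probe, with a median of -0.69 and 3 called lower, beside 2.62% of all genes. Only 3 of the 10 genes were well above background on all 6 arrays. Each of the 3 called genes was well above background on the 3 S arrays alone and passed the detection filter through them. The direction of these calls was thus largely set by the filter, and they are no support for a strain difference. Cma1, a chymase, was not well above background in any congenic rat and was at least 4.58-fold lower there (adjusted p 0.339 in limma), with 8.34 in S1, 5.40 in S2 and 8.00 in S3. Cpa3, a carboxypeptidase of mast cell granules, was at least 1.40-fold lower on the same terms (adjusted p 0.356). The third call, Ms4a2, named after its values had been seen, was also not well above background in any congenic rat, and its bound was under 1, so no fold is given. Kit, the receptor for stem cell factor on mast cells and on the pacemaker cells of the gut muscle, was named after its values had been seen, had the opposite sign and was not called, with 9.14, 8.89 and 9.94 in C1 to C3 and 7.91, 9.15 and 7.85 in S1 to S3.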
